A study of Mus musculus with 8 samples.

Results

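Metallothioneins and glucocorticoid-response genes were examined in the tibialis anterior (TA) muscle of aged mice that lack fast skeletal myosin-binding protein C. The 10 genes, chosen by symbol with earlier results of these data known, were Mt1, Mt2, Nr3c1, Fkbp5, Tsc22d3, Sgk1, Klf15, Klf9, Cebpd and Zbtb16. All of them were among the 16686 genes of the deposited table, and all 10 were among the 12542 genes that passed edgeR's filter on low counts. The mice were males of 22 months on the FVBN background, 4 wild type (FVBN/WT, written WT) and 4 with a germline knockout (FVBN/C2-/-, written C2-/-), with 1 library per mouse. In the knockout, a Neo cassette flanked by LoxP sites replaces a large part of Mybpc2, the gene of the fast protein, so that every cell of the animal carries the deletion from conception. No mouse was given a glucocorticoid or a metal according to the labels, and the hour at which muscles were taken is not given in the sources used here.

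Metallothioneins are small cysteine-rich proteins that bind zinc and copper. Their genes are switched on by the zinc-sensing factor MTF-1, and also by glucocorticoids, the adrenal stress hormones that act through the glucocorticoid receptor encoded by Nr3c1. In skeletal muscle, a rise in glucocorticoid induces a known set of direct targets, among them Fkbp5, Tsc22d3, Klf15, Klf9, Cebpd, Zbtb16 and Sgk1, and a sustained rise leads to loss of muscle protein. Secretion of the hormone follows a daily rhythm and also increases with stress and fasting.

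Mt1 and Mt2 are neighbours on chromosome 8 of the GRCm38.p6 assembly. RefSeq places Mt2 from 94172618 to 94173567 and Mt1 from 94178883 to 94180327, so that 5315 bases lie between them. The window of 250 bases before the RefSeq start of Mt2 is shown because both metallothioneins moved together over the mice. It was searched on both strands for the core of the metal response element bound by MTF-1, spelled TGCACNC or TGCGCNC, and its matches are in capitals. The 3 matches start 223, 128 and 50 bases before the start, the last of them on the minus strand, and do not overlap.

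Mt2, chr8:94172368-94172617, plus strand: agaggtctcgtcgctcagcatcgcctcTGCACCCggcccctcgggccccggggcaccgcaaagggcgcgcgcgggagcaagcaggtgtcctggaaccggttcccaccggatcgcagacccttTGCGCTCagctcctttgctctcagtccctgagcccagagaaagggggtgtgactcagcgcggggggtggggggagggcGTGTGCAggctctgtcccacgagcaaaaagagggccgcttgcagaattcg

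Of 32851 RefSeq windows of the same length, 21.41% held at least 1 match to this core and 1.26% held 3 or more. The window given for Mt1 ends before 94179089, a start 206 bases inside the gene interval above, so that most of this window lies within that interval. It held 1 match, 23 bases before 94179089, and also 1 match to a palindromic glucocorticoid response element, spelled GNACANNNTGTNC, which 0.39% of all windows held. Stretches of 30 bases around these matches, and around the only such glucocorticoid element in the windows of the other genes, in 1 of 6 windows of Sgk1 and within the interval of that gene, are given with the match in capitals.

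Mt1, metal element, chr8:94179055-94179084, plus strand: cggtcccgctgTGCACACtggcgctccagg

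Mt1, glucocorticoid element, chr8:94178987-94179016, plus strand: cactatagGGACATGATGTTCcacacgtca

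Sgk1, glucocorticoid element, chr10:21993694-21993723, plus strand: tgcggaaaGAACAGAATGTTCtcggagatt

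GENCODE vM21 places further starts of Mt1 122 and 152 bases, and of Mt2 46 and 242 bases, downstream of the starts used for these windows. The bases between those starts were not searched. The numbers of matches therefore hold for these windows only and do not compare the promoters of Mt1 and Mt2. RefSeq windows were at hand for 7 of the 10 genes, not for Nr3c1, Cebpd and Zbtb16. A match describes letters only, and whether a factor was bound was not measured.

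The libraries held between 25425993 and 29747692 counts, so that a level of 3 counts corresponds to 0.104 to 0.116 CPM (counts relative to library size, scaled with TMM factors), which covers counting error only. Mybpc2 lay between 4964 and 7392 CPM in WT mice. It lay between 3.85 and 4.35 CPM in C2-/- replicates 1, 2 and 4 and at 38.3 CPM in C2-/- replicate 3. All libraries were thus of the genotype that their label gives, and why C2-/- replicate 3 was higher was not tested. Across all tested genes, 4 of 12542 differed between the genotypes at an adjusted p under 0.05 (quasi-likelihood test of edgeR, Benjamini-Hochberg adjustment), which is 0.0319%. One library stood apart, for the genes described here and over all genes in both directions. WT replicate 2 had the highest CPM of all 8 mice for 27.5% of tested genes, the largest such share of any mouse. It also had the lowest CPM for 3076 of 12542 genes, again the most of any mouse. The fold changes of the 10 genes are also given without this library.

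None of the 10 genes differed between the genotypes at an adjusted p under 0.05. The fitted log2 fold change (C2-/- over WT) was below 0 for all 10 genes, against 54.2% of all tested genes, with a median of −0.57 against −0.02 for all genes. The 10 genes tended to vary together over the same mice, as given below. Their signs are therefore not 10 separate observations. At an unadjusted p under 0.05, 1 gene was lower in C2-/-, Klf15, where 1.91% of all genes were, and none was higher, where 3.38% were. limma-voom and DESeq2 also gave 1 gene lower and none higher at this level, and 0 at an adjusted p under 0.05. The ranges of the genotypes overlapped for all 10 genes, and 3.38% of all tested genes had ranges that did not overlap. Without WT replicate 2, 8 of 10 fold changes were below 0, and their median was −0.19. That fit tested 12672 genes. Among those also tested with all mice, 6336 were below 0, with a median of −0.0. None of the 10 genes then passed an unadjusted p of 0.05, where 1.84% of the 12672 genes were lower at that level. Leaving out 1 mouse gave between 0 genes past that level (without WT replicate 2 or C2-/- replicate 1) and 4 (without WT replicate 1, when Mt1, Mt2, Klf15 and Klf9 passed). The share of all genes at that level was taken only for the main fit and the fit without WT replicate 2. Counts from other fits, here and below, stand without such a share and are descriptions only.

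**Figure D1:**
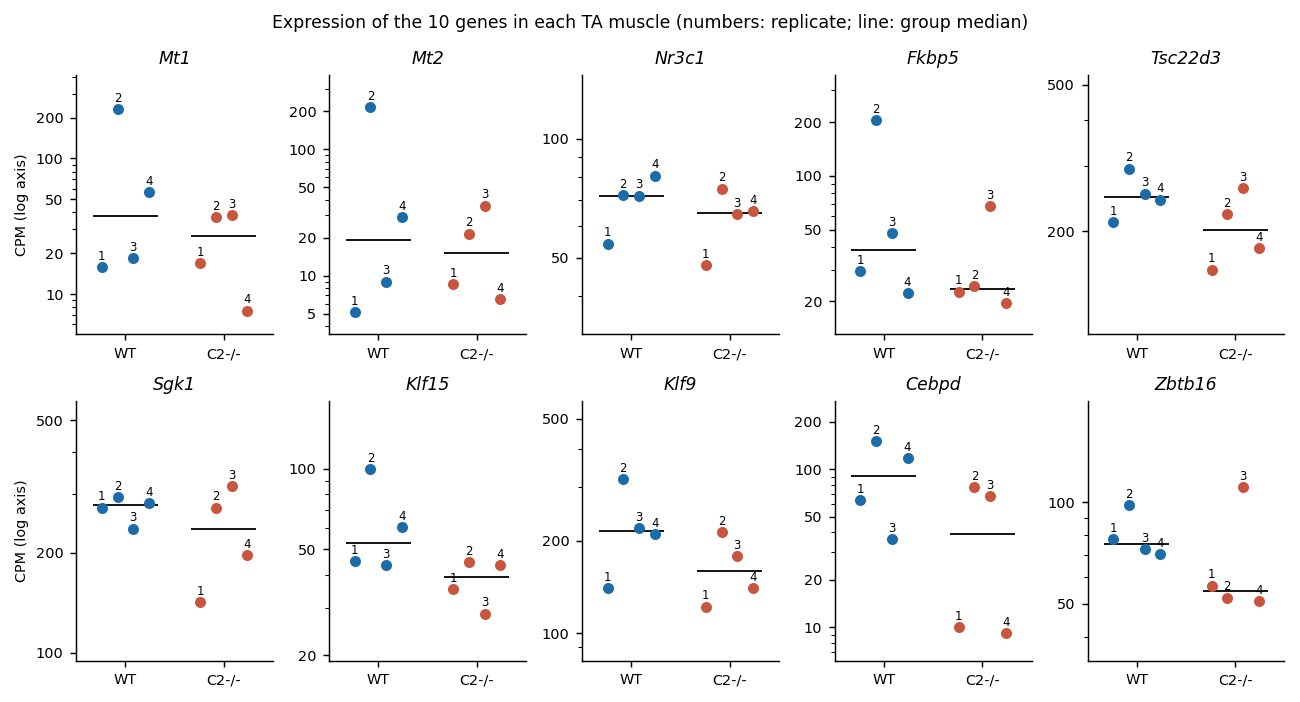
Expression of each gene in every TA muscle, in CPM on a log axis, for 4 WT (blue) and 4 C2-/- (red) mice; the number above a point is the replicate and the line is the group median. WT replicate 2 has the highest value of Mt1, Mt2, Fkbp5, Tsc22d3, Klf15, Klf9 and Cebpd, and the ranges of the genotypes overlap in all 10 panels.

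Most of the 10 genes had their highest value in the same mouse. WT replicate 2 had the highest CPM of all mice for 7 of the 10 genes, against the 27.5% of all genes given above, WT replicate 4 for 1 and C2-/- replicate 3 for 2. At the other end, C2-/- replicates 1 and 4 had the lowest CPM for 4 genes each, 8 of 10 together, against 22.7% of all tested genes. The counts of peaks and troughs were made after the values had been seen. The 10 genes together summed to 1979 CPM in WT replicate 2, to between 917 and 1172 CPM in the other WT mice, and to between 620 and 1171 CPM in C2-/- mice.

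The metallothioneins had the widest range of the 10 genes over all 8 mice, with a highest value 30.6 times the lowest for Mt1 and 41.8 times for Mt2. In the other 7 mice these came to 7.48 and 6.93, and Cebpd had the widest range, at 12.7. Mt1 (gene ID 17748) was at 15.9, 231.1, 18.4 and 56.5 CPM in WT replicates 1 to 4, and at 16.9, 37.0, 38.2 and 7.56 CPM in C2-/- replicates 1 to 4. WT replicate 2 was 12.6 times the median of the other 7 mice, while 2 of the other WT mice lay within the range of the C2-/- mice and replicate 4 above it. The WT mean was 80.5 ± 102 CPM (SD, n = 4) and the C2-/- mean 24.9 ± 15.1 CPM (SD, n = 4). Mt1 had a log2 fold change of −1.69 ± 0.82 (SE, unadjusted p = 0.0663, adjusted p = 0.968). Leaving out WT replicate 2 brought this to −0.27 ± 0.56 (SE).

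Mt2 (gene ID 17750) was at 5.17, 216.2, 9.0 and 29.2 CPM in WT replicates 1 to 4, and at 8.63, 21.5, 35.8 and 6.52 CPM in C2-/- replicates 1 to 4. Its highest value came from WT replicate 2, and its lowest value of all also came from a WT mouse, replicate 1. Its log2 fold change was −1.84 ± 1.04 (SE, adjusted p = 0.968). It turned to 0.33 ± 0.65 (SE) without WT replicate 2. Summed to 1 feature, Mt1 and Mt2 gave a log2 fold change of −1.76 ± 0.90 (SE, adjusted p = 0.968), and of −0.05 ± 0.58 (SE) without WT replicate 2. Their transcripts in GENCODE vM21 share no run longer than 20 bases, so few reads could be taken for either gene.

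**Figure D2:**
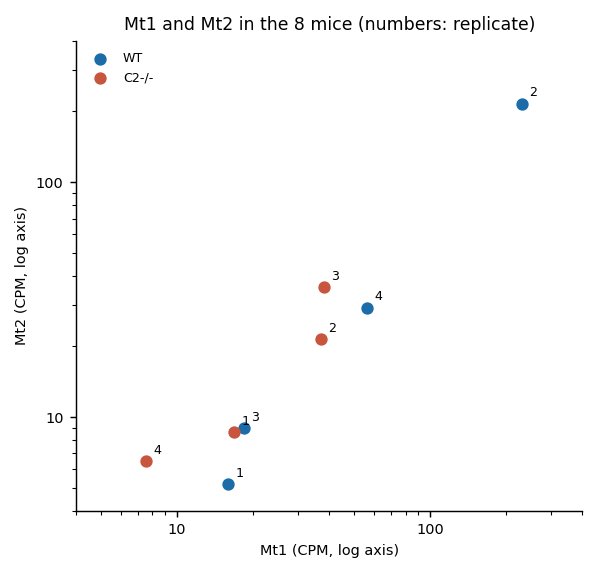
Mt1 against Mt2 in each mouse, in CPM on log axes, WT in blue and C2-/- in red, with replicate numbers. The points lie along a rising line from C2-/- replicate 4 and WT replicate 1 at the low end to WT replicate 2 at 231.1 and 216.2 CPM, with both genotypes mixed below it.

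Over the 8 mice, log2 CPM of Mt1 and Mt2 had a Pearson r of 0.96 (exact permutation p = 0.00104, adjusted over 45 pairs of the 10 genes 0.0469) and a Spearman rho of 0.95 (exact permutation p = 0.00114, adjusted 0.0514). Without WT replicate 2 and C2-/- replicate 4, which were farthest from the median of Mt1, r was 0.93, and without WT replicate 2 alone it was 0.88. No other pair passed an adjusted p of 0.05.

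Other genes of metal handling did not share this peak as a group. The list held Mtf1, the remaining metallothioneins and the zinc transporters of the Slc30 (export) and Slc39 (import) families, 22 genes of which 19 were tested. Of these, 8 had a log2 fold change below 0, the median was 0.01, none passed an unadjusted p of 0.05 in either direction, and 5 were highest in WT replicate 2. Without WT replicate 1 or WT replicate 4, 2 were lower in C2-/- at that level. The smallest p values belonged to a pair of transporters that did have their peak in that mouse. Slc39a14, an importer of zinc and iron, was at 10.8, 52.4, 13.5 and 9.92 CPM in WT replicates 1 to 4 and between 10.7 and 12.1 CPM in C2-/- mice (log2 fold change −0.96 ± 0.48 SE, adjusted p = 0.968, and −0.02 ± 0.13 SE without WT replicate 2). Slc30a2, which moves zinc into vesicles, was at 6.98, 41.2, 13.7 and 8.47 CPM in WT replicates 1 to 4 and between 7.38 and 12.3 CPM in C2-/- mice (log2 fold change −0.99 ± 0.50 SE, adjusted p = 0.968, and −0.12 ± 0.25 SE without WT replicate 2). Slc39a6, the next in order, had a log2 fold change of 0.34 ± 0.27 (SE). Mtf1, singled out after its values were seen because it encodes the metal sensor, was nearly level over the mice, from 20.4 to 22.8 CPM in WT and from 19.2 to 23.6 CPM in C2-/-.

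Nr3c1 (gene ID 14815, chromosome 18), which encodes the receptor itself, varied little. It was at 54.2, 71.8, 71.7 and 80.6 CPM in WT replicates 1 to 4, and at 48.0, 74.7, 64.5 and 65.5 CPM in C2-/- replicates 1 to 4. Replicate 1 was the lowest mouse of either genotype, and WT replicate 2 was not set apart. For Nr3c1, the log2 fold change was −0.14 ± 0.16 (SE), with a 95% interval from −0.50 to 0.22, and it was −0.12 ± 0.17 (SE) without WT replicate 2.

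Fkbp5 (gene ID 14229, 17:28398753-28486149) encodes a co-chaperone that binds the receptor complex and lowers its affinity for hormone, and is itself a strongly induced target. It was at 29.5, 204.6, 47.9 and 22.2 CPM in WT replicates 1 to 4, and at 22.6, 24.3, 67.9 and 19.6 CPM in C2-/- replicates 1 to 4. One mouse of each genotype was high, WT replicate 2 and C2-/- replicate 3, and the other 6 lay between 19.6 and 47.9 CPM. The log2 fold change of −1.18 ± 0.68 (SE, adjusted p = 0.968) came to 0.02 ± 0.42 (SE) without WT replicate 2. Without C2-/- replicate 3 it was −1.78, with an unadjusted p of 0.0346, and without WT replicate 4 it was −1.47, with an unadjusted p of 0.0481.

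A list of the wider machinery of the receptor held no gene past the adjusted threshold. The list of 19 genes (both corticosteroid receptors, their chaperones, the enzymes that activate or inactivate the hormone, and coregulators) included Nr3c1 and Fkbp5, and 18 were tested. A log2 fold change below 0 was found for 9 of 18, the median was −0.00, and none passed an unadjusted p of 0.05. Without WT replicate 4 or C2-/- replicate 3, only Fkbp5 did, lower in C2-/- as given above. After Fkbp5, the smallest p values belonged to Hsd11b1, the enzyme that regenerates active hormone within cells, at 5.69 ± 0.833 CPM in WT and 6.62 ± 0.905 CPM in C2-/- (SD, n = 4 each), and to the chaperone Ptges3. Ptges3 was at 70.6 CPM in WT replicate 2 and between 32.3 and 43.2 CPM in the other 7 mice. Of the 18 genes, 3 were highest and 7 lowest in WT replicate 2. Over all 12542 tested genes, 3444 were highest and 3076 lowest there.

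Tsc22d3 (gene ID 14605, X:140539528-140600522), also known as GILZ, encodes a leucine-zipper protein through which glucocorticoids dampen inflammation. It was at 212.0, 296.1, 253.1 and 243.7 CPM in WT replicates 1 to 4, and at 157.4, 223.0, 261.6 and 180.0 CPM in C2-/- replicates 1 to 4. WT replicate 2 was again the highest, but only 1.33 times the median of the others, and C2-/- replicates 1 and 4 were the lowest. This gave a log2 fold change of −0.29 ± 0.17 (SE, adjusted p = 0.968). It was −0.19 ± 0.16 (SE) without WT replicate 2, and −0.43 without C2-/- replicate 3, when the unadjusted p was 0.0276.

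Sgk1 (gene ID 20393, 10:21882184-21999903), a kinase that acts on ion channels and on FoxO factors, was at 273.1, 293.1, 236.2 and 281.6 CPM in WT replicates 1 to 4. In C2-/- replicates 1 to 4 it was at 142.1, 273.0, 317.5 and 197.1 CPM. The C2-/- mice spread on both sides of the narrow WT range, from the lowest to the highest value of all. A log2 fold change of −0.22 ± 0.22 (SE, adjusted p = 0.968) was fitted. It was −0.18 ± 0.23 (SE) without WT replicate 2, −0.04 without C2-/- replicate 1 and −0.41 without C2-/- replicate 3.

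Klf15 (gene ID 66277, 6:90461043-90491803), a Krüppel-like factor that drives breakdown of branched-chain amino acids and lipid use in muscle, was at 45, 99.6, 43.5 and 60.5 CPM in WT replicates 1 to 4. It was at 35.3, 44.7, 28.7 and 43.5 CPM in C2-/- replicates 1 to 4. The highest C2-/- value lay just above the lowest WT value, so that the genotypes overlapped narrowly. WT averaged 62.2 ± 26.1 CPM and C2-/- 38.1 ± 7.52 CPM (SD, n = 4 each). The log2 fold change was −0.71 ± 0.26 (SE), with a 95% interval from −1.29 to −0.12, and its p was 0.0220 unadjusted and 0.852 adjusted, which did not pass the adjusted threshold. A two-sided exact permutation test of the mean CPM gave p = 0.0571, where 4 mice against 4 allow no p under 0.0286. The unadjusted p rose to 0.0566 without WT replicate 2 (log2 fold change −0.38 ± 0.18 SE), to 0.0535 without C2-/- replicate 1, and to 0.0647 without C2-/- replicate 3.

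A list of 14 genes of amino acid breakdown, chiefly of branched-chain amino acids and proline and with several known KLF15 targets, was read beside it. Of the 14 genes, all tested, 11 had a log2 fold change below 0, with a median of −0.18, and none passed an unadjusted p of 0.05. Prodh, which starts proline breakdown, was at 22.5 CPM in WT replicate 2 and between 2.55 and 8.07 CPM in the other 7 mice (log2 fold change −1.24 ± 0.57 SE, adjusted p = 0.944, and −0.34 ± 0.38 SE without WT replicate 2). Aldh6a1, of the valine pathway, was at 182.2, 177.8, 150.6 and 178.3 CPM in WT replicates 1 to 4 and between 139.4 and 156.7 CPM in C2-/- mice (log2 fold change −0.22 ± 0.10 SE, adjusted p = 0.965). Bckdhb, a subunit of the branched-chain ketoacid dehydrogenase, had a log2 fold change of −0.28 ± 0.14 (SE). Of the 14 genes, 6 were highest in WT replicate 2, and the median without that mouse was −0.10. Without WT replicate 3, 4 of them passed an unadjusted p of 0.05, and without WT replicate 1 or C2-/- replicate 3, 1 did, all lower in C2-/-. The share of all genes in those fits was not taken.

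Klf9 (gene ID 16601, 19:23141226-23168129), another Krüppel-like factor and an early glucocorticoid target, was at 140.4, 317.7, 219.8 and 210.1 CPM in WT replicates 1 to 4. It was at 122.2, 213.9, 178.4 and 140.4 CPM in C2-/- replicates 1 to 4. Replicate 2 was highest within WT and also within C2-/-, and replicate 1 lowest within both. Klf9 had a log2 fold change of −0.44 ± 0.25 (SE, adjusted p = 0.968), and −0.21 ± 0.21 (SE) without WT replicate 2.

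Cebpd (gene ID 12609, 16:15887286-15889545) encodes C/EBPδ, a factor induced by glucocorticoids and by inflammation. Its values were 64.1, 151.0, 36.3 and 117.3 CPM in WT replicates 1 to 4, and 9.99, 77.2, 67.6 and 9.22 CPM in C2-/- replicates 1 to 4. The C2-/- mice fell into a low and a high pair, and the high pair lay within the WT range. The log2 fold change was −1.17 ± 0.70 (SE, adjusted p = 0.968), and −0.82 ± 0.71 (SE) without WT replicate 2. The last 322 bases of Cebpd in RefSeq overlap Spidr, and the strand setting of the counting is not given in the sources used here, but Spidr was between 0.347 and 1.28 CPM in these mice.

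Zbtb16 (gene ID 235320, 9:48651797-48836225) encodes the zinc-finger repressor PLZF, a target induced in many tissues. It was at 78.0, 98.1, 72.6 and 70.3 CPM in WT replicates 1 to 4, and at 56.7, 52.2, 110.9 and 50.9 CPM in C2-/- replicates 1 to 4. Of the C2-/- mice, 3 lay below every WT mouse and the fourth, replicate 3, above them all. Zbtb16 had a log2 fold change of −0.24 ± 0.25 (SE, adjusted p = 0.970). It was −0.58 ± 0.15 without C2-/- replicate 3 (SE, unadjusted p = 0.00310) and −0.12 without WT replicate 2, C2-/- replicate 2 or C2-/- replicate 4. In RefSeq, Zbtb16 shares 4607 bases with the predicted gene Gm32280, whose level was not analysed here, so its counts are uncertain to that extent.

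**Figure D3:**
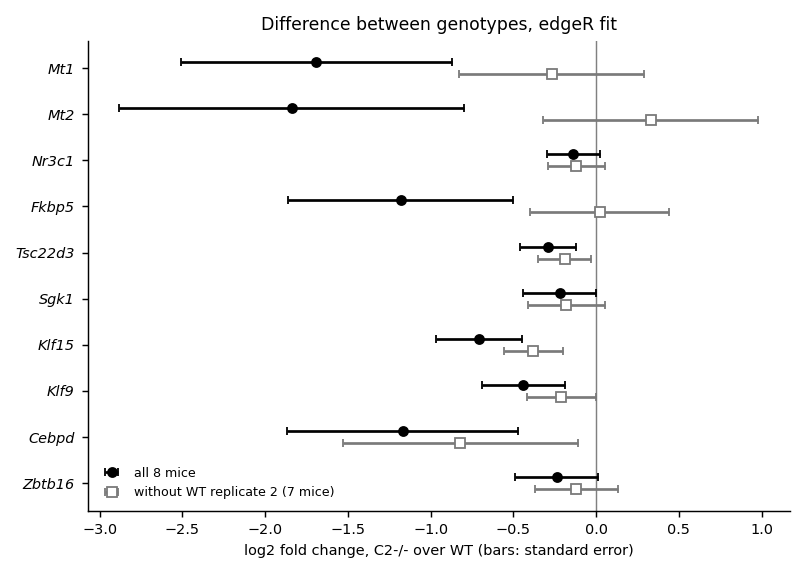
Log2 fold change of each gene, C2-/- over WT, with its standard error, from edgeR fits to all 8 mice (filled circles) and to the 7 mice without WT replicate 2 (open squares). All 10 circles lie below 0; the squares of Mt2 and Fkbp5 lie above 0, at 0.33 and 0.02, and that of Mt1 moves from −1.69 to −0.27.

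Levels were compared between genes only in the deposited TPM values, which are scaled by transcript length. By the median over the 8 mice, the order was Tsc22d3 (215.2 TPM), Sgk1 (199.3), Mt1 (112.6), Klf9 (108.8), Mt2 (61.6), Cebpd (53.8), Klf15 (33.1), Nr3c1 (19.2), Zbtb16 (17.1) and Fkbp5 (12.9). No neighbours in this order had ranges that were apart. In WT replicate 2 alone the order was different, with Mt1 at 788.3 TPM and Mt2 at 723.4 TPM above Tsc22d3 at 246.9 TPM.

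The 10 genes tended to be high and low in the same mice. All 45 pairs had a Pearson r above 0, from 0.10 to 0.96 with a median of 0.65, but only the pair of metallothioneins passed the adjusted threshold by r, and none did by rho. Without WT replicate 2, 41 of 45 were above 0, with a median of 0.57. Klf15 then differed in sign with Fkbp5 (r = −0.60) and Zbtb16 (r = −0.42), which were high in C2-/- replicate 3, where Klf15 was at its lowest. Other pairs were as close without WT replicate 2 as with it, among them Sgk1 with Cebpd (r = 0.89 both ways) and Fkbp5 with Zbtb16 (0.79 with it and 0.85 without it). These pairs had adjusted exact permutation p values of 0.0598 and 0.0662 over all 8 mice.

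**Figure D4:**
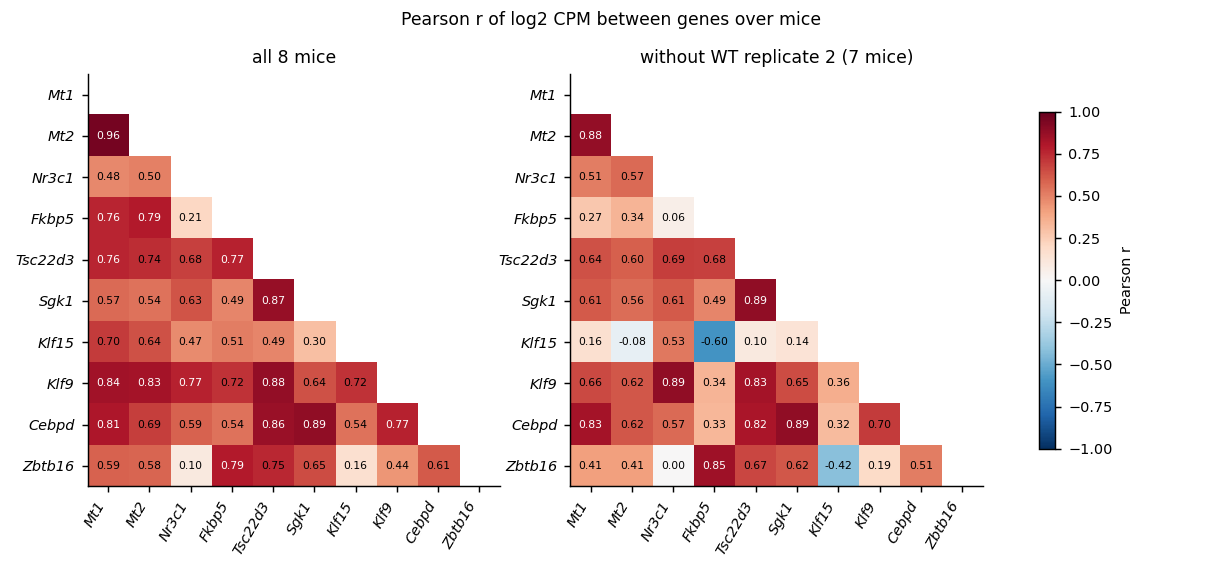
Pearson r of log2 CPM (prior count 2) for each pair of the 10 genes over all 8 mice (left) and over the 7 mice without WT replicate 2 (right), colored from −1 (blue) to 1 (red). All values on the left are above 0, and Klf15 holds the clearly negative values on the right, −0.60 with Fkbp5 and −0.42 with Zbtb16.

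Among all tested genes, those whose log2 CPM was most like a given gene over the 8 mice were named as a description, with Pearson r over 8 points that share libraries and depth. For Mt1 they were Rsl1d1 (0.993), Spice1 (0.985) and Psmc6 (0.984), and for Mt2 Ftsj3 (0.991), Pak1ip1 (0.990) and Eprs (0.985). Fkbp5 was most like Spock2 (0.989), Pdlim5 (0.969) and Ip6k3 (0.968), and Klf15 most like Dus3l (0.968), Wbp11 (0.963) and Mllt10 (0.960). For Tsc22d3 they were Serinc1, Crnkl1 and Rai14 (0.963 to 0.974), for Klf9 Orc2, Fzd4 and Golga3 (0.964 to 0.978), and for Cebpd Acsl4, Depp1 and Gpbp1 (0.969 to 0.981). Of the 30 genes so named, 22 were highest in WT replicate 2. The exceptions were those of Nr3c1 (Mss51, Mgea5 and Rere, 0.963 to 0.971), those of Sgk1 (Il17ra, Hirip3 and Csf2rb, 0.938 to 0.961), and Abra and Cd24a, which with Cog4 were most like Zbtb16 (0.941 to 0.965).

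The same mouse led a wider set of glucocorticoid-induced genes. A further 28 genes that glucocorticoids are known to induce in muscle or other tissues were all tested. Of these, 18 were highest in WT replicate 2 and 15 lowest in C2-/- replicate 1. Over all 12542 tested genes, 3444 were highest in WT replicate 2 and 1268 lowest in C2-/- replicate 1. The 28 genes summed to 7183 CPM in WT replicate 2, between 2044 and 3464 CPM in the other WT mice, and between 1695 and 2758 CPM in C2-/- mice. A log2 fold change below 0 was found for 25 of 28, against 54.2% of all tested genes, with a median of −0.79. At an unadjusted p under 0.05, 3 were lower in C2-/-, where 1.91% of all genes were, and none was higher. None passed the adjusted threshold. Without WT replicate 2 the median was −0.26, 21 of 28 were below 0, and none passed an unadjusted p of 0.05, whereas 9 did without WT replicate 1, 8 without WT replicate 3, 7 and 5 without C2-/- replicates 2 and 3, and 1 without C2-/- replicate 1 or 4, all lower in C2-/-. Without WT replicate 4, 4 were lower and 1 was higher. For these fits, except the fit without WT replicate 2, the share of all genes at that level was not taken.

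The 3 genes were Fbxo32, Sesn1 and Cdkn1a. Fbxo32, the atrophy ubiquitin ligase atrogin-1, was at 202.3, 971.5, 236.2 and 530.0 CPM in WT replicates 1 to 4 and between 200.3 and 242.1 CPM in C2-/- mice. Sesn1, a stress-induced inhibitor of mTORC1 signalling, was at 72.0 CPM in WT replicate 2 and between 10.1 and 15.2 CPM in the other 7 mice. Cdkn1a, the cell-cycle inhibitor p21, was at 404.7 CPM in WT replicate 2 and between 22.6 and 43.1 CPM in the others. In all 3 the C2-/- mice lay close together and WT replicate 2 was far above them. The log2 fold changes were −1.13 ± 0.42 for Fbxo32, −1.31 ± 0.53 for Sesn1 and −2.02 ± 0.84 for Cdkn1a (SE, adjusted p from 0.857 to 0.919). Without WT replicate 2 these were −0.53, −0.25 and 0.01. limma-voom, with all mice, gave the 3 genes unadjusted p values of 0.0697, 0.117 and 0.244. It put 2 other genes of the same list past an unadjusted p of 0.05, both lower in C2-/-. DESeq2, with all mice, gave an unadjusted p of 0.0350 for Fbxo32 and returned no p value for Sesn1 and Cdkn1a.

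**Figure D5:**
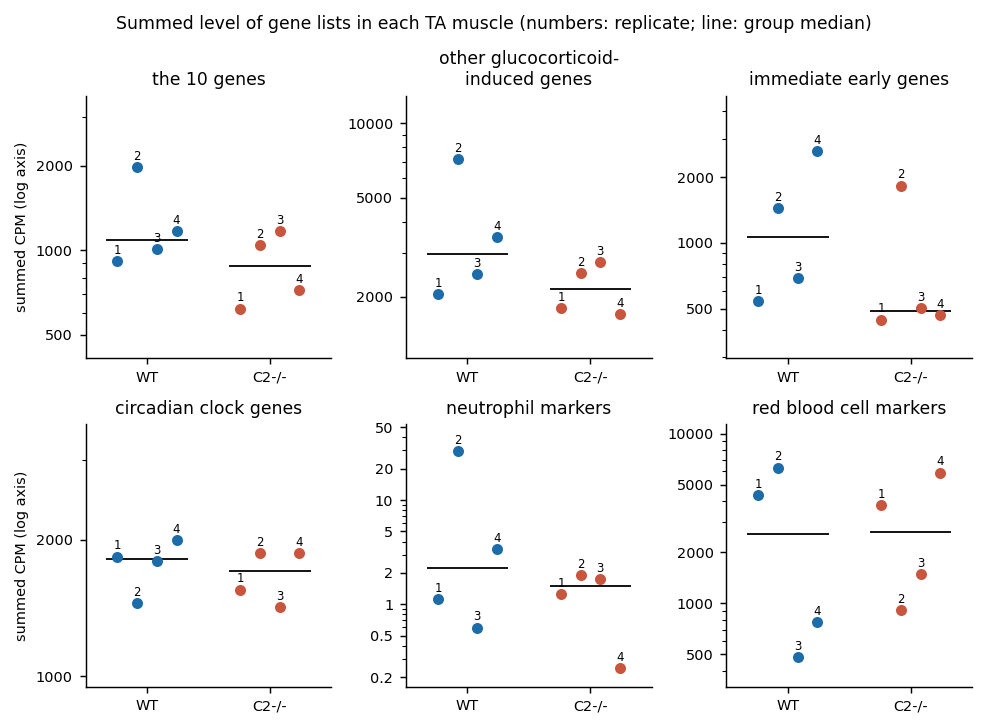
Summed CPM, on a log axis, of the 10 genes, of 28 other glucocorticoid-induced genes, and of immediate early, circadian clock, neutrophil and red blood cell genes in each TA muscle, WT in blue and C2-/- in red; numbers are replicates and lines group medians. WT replicate 2 is highest in the first and second panels and for both blood cell lists, and WT replicate 4 for the immediate early genes. The sum of the clock genes spreads over a narrow range.

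Immediate early genes, which respond within minutes to activity and handling, had another order of mice. All 12 were highest in WT replicate 4, against 9.27% of all tested genes, and their summed level was 2627 CPM there, 1829 CPM in C2-/- replicate 2, 1448 CPM in WT replicate 2 and between 445 and 688 CPM in the other 5 mice. None passed an unadjusted p of 0.05, and all 12 log2 fold changes were below 0, with a median of −0.95. Without C2-/- replicate 2, 11 of 12 passed that level, all lower in C2-/-, and the share of all genes in that fit was not taken. The smallest p values belonged to Atf3, Nr4a1 and Zfp36, with log2 fold changes of −1.50 ± 0.94, −0.45 ± 0.29 and −1.0 ± 0.85 (SE).

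Circadian clock genes, through which daily hormone rhythms can act, were more even in their summed level, but not each by itself. The sum adds genes that need not peak at the same hour. It therefore cannot show whether the mice differed in clock time, which was not tested. Of 18 genes, 4 were highest and 6 lowest in WT replicate 2, and their summed level lay between 1448 and 1995 CPM in WT and between 1421 and 1871 CPM in C2-/- mice. None passed an unadjusted p of 0.05, and 11 of 18 log2 fold changes were below 0, with a median of −0.05. Leaving out WT replicate 1 or C2-/- replicate 1, 2 or 3 gave 1 lower gene at that level, and leaving out WT replicate 4 gave 1 higher. Nfil3, a repressor within the clock, was at 21.4, 49.6, 34.2 and 34.8 CPM in WT replicates 1 to 4 and at 12.0, 18.0, 38.7 and 10.4 CPM in C2-/- replicates 1 to 4 (log2 fold change −0.82 ± 0.40 SE, adjusted p = 0.968). Its high C2-/- mouse, replicate 3, was also the high one for Fkbp5 and Zbtb16. Per1, a clock gene that glucocorticoids also induce and that stands in both lists, was at 110.5, 137.5, 210.6 and 150.4 CPM in WT and at 30.9, 166.1, 94.5 and 89.2 CPM in C2-/- replicates 1 to 4. Bhlhe40, the third by p, had a log2 fold change of −0.21 ± 0.14 (SE).

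Markers of other cells were read beside these values, since fewer cells of a type and less RNA per cell cannot be told apart in whole muscle. Neutrophil markers summed to 29.5 CPM in WT replicate 2 and to between 0.243 and 3.37 CPM in the other 7 mice, with S100a8 at 12.8 CPM and S100a9 at 16.7 CPM in that mouse, while Ngp and Camp did not pass the filter on low counts. Both S100 genes were lower in C2-/- at an unadjusted p under 0.05 and neither at an adjusted p, with log2 fold changes of −2.89 ± 1.18 and −2.66 ± 1.08 (SE) that came to −0.34 ± 0.76 and −0.44 ± 0.68 (SE) without WT replicate 2. DESeq2 returned no p value for S100a8 and an unadjusted p of 0.0267 for S100a9. Red blood cell markers were also highest in WT replicate 2, at 6293 CPM, but C2-/- replicate 4, the lowest mouse for 4 of the 10 genes, was close at 5885 CPM, and the others lay between 483 and 4343 CPM. Macrophage markers, 48.8 CPM in WT replicate 2, lay between 21.1 and 60.2 CPM over all mice, and their 6 log2 fold changes were all above 0, none past an unadjusted p of 0.05. Adipocyte markers ranged from 89.6 to 145.7 CPM, endothelial markers from 190.5 to 285.2 CPM and Schwann cell markers from 26.9 to 79.8 CPM. Muscle fibre markers, from 158200 to 209000 CPM, defined the tissue as labelled in all 8 mice, with WT replicate 2 at 182400 CPM. Of the fibroblast and tendon markers, 3 of 6 (Col1a1, Tnmd and Dcn) were higher in C2-/- at an unadjusted p under 0.05, none at an adjusted p in edgeR and Col1a1 in DESeq2 (adjusted p = 0.0405), and the list summed to between 320.2 and 506.9 CPM in WT and between 456.2 and 687.9 CPM in C2-/- mice. The part of these cell types in the values of the 10 genes was not tested.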

How the data were processed

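RNA from the TA muscle of 8 mice, 1 library each, was enriched with oligo(dT), and per the study's methods reads were aligned with HISAT to GRCm38.p6 and counted with featureCounts, whereas the labels list both HISAT and Bowtie2. The authors deposited expected counts per gene without normalization. From 5.5% to 6.53% of them per mouse are not whole, which simple counting does not give, so the counting step is uncertain. They were rounded, and the deposited TPM was used only for levels between genes. The authors' 8 FPKM columns and their columns of log2 fold changes and DESeq2 p-values were not used. Groups came from the labels. A second age entry in the labels conflicts with 22 months.

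Counts were scaled by TMM (factors 0.929 to 1.03) and tested with edgeR 4.0.16 (R 4.3.3), quasi-likelihood, default filter, Benjamini-Hochberg over 12542 genes. limma 3.58.1 (voom) and DESeq2 1.42.0, a block for the replicate number, other scalings and filters, and fits that omit 1 mouse were alternatives. The main edgeR fit was tested on simulated counts, which held no outlying library and no genes made to vary together. Correlations used log2 CPM with a prior count of 2. P-values of the fits set a genotype difference against the spread between mice, estimated with information shared over genes. Exact p-values come from permuting genotype labels or pairings over the mice.

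The 10 genes and all lists were chosen with earlier results of these data known. Named are the 10 genes, the 3 genes of each list with the smallest p (with any past the adjusted threshold), and the 3 most similar genes of each. Mtf1, Spidr and Gm32280 fall outside this rule, and the values of Mtf1 and Spidr had been seen.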

Additional observations from a re-analysis of the deposited data

Results flagged for a closer look

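Within groups of 4, a single mouse was far from the others in 4 of the 20 sets of values (10 genes, each in 2 genotypes). The test took the gap to the nearest mouse over the range of the group (Dixon's test at the 95% level). Chance exceeds this in about 1 of 20 sets when the sets are independent and normally distributed. These sets share the same mice, hold genes that vary together and were tested as CPM without a log. The 4 flags can therefore not be set against that rate. WT replicate 2 was far above the other WT mice for Mt2, at 216.2 CPM (ratio 0.886), and for Fkbp5, at 204.6 CPM (ratio 0.859). C2-/- replicate 3 was far above the other C2-/- mice for Fkbp5, at 67.9 CPM (ratio 0.901), and for Zbtb16, at 110.9 CPM (ratio 0.904). The part of any single cause in these values was not tested.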

How the results depend on the processing

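No alternative brought any of the 10 genes past an adjusted p of 0.05, and their lowest adjusted p over all alternatives was 0.455, for Klf15 with DESeq2. All 10 log2 fold changes kept their sign under other scalings, filters and tests and when any mouse other than WT replicate 2 was left out. Without WT replicate 2, Mt2 and Fkbp5 turned to 0.33 and 0.02; over the fits that omit 1 mouse, they ranged from −2.41 to 0.33 and from −1.78 to 0.02. DESeq2 called 39 genes of all at an adjusted p under 0.05 instead of 4, and leaving out 1 mouse gave 4 to 7. At an unadjusted p under 0.05, the number of the 10 genes lower in C2-/- was 2 without a filter beyond 1 count and 0 to 4 when 1 mouse was left out. The cause was not tested. Leaving out 1 mouse gave 0 to 2 lower genes of metal handling and 0 to 1 of the receptor machinery, which was Fkbp5. It gave 0 to 9 lower other glucocorticoid-induced genes (0 to 1 higher) and 0 to 4 of branched-chain amino acid breakdown. For the clock it gave 0 to 1 lower (0 to 1 higher), and for immediate early genes 0 to 11 lower. limma-voom gave 1 lower clock gene and 2 lower other glucocorticoid-induced genes. Except for the fit without WT replicate 2, these counts stand without the share of all genes in the same fit.

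Replicate numbers 1 to 4 occur in both genotypes but name different mice. Same-numbered mice deviated from their group means with correlations of 0.267, 0.042, −0.051 and 0.021, so the numbers were not taken as pairs. With the replicate block, 3 of the 10 genes (Klf15, Klf9 and Tsc22d3) were lower at an unadjusted p under 0.05 and none at an adjusted p. The prior count of 0.5 left every correlation the same to 2 decimals. With 4 mice per genotype, differences as wide as the intervals given here could not be told from none. Intervals of Mt1, Mt2, Fkbp5 and Cebpd span more than 3 log2 units.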
